A study of Homo sapiens with 3 samples.

Results

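The large-subunit ribosomal protein genes RPL3, RPL5, RPL7A, RPL8, RPL11, RPL12, RPL13, RPL19, RPL37A and RPLP0 were followed through the 3′ ends of their mRNAs. The 10 members were taken by name. For each, all counts on the gene's strand within 300 nt of its gene end in hg19, a build of the human genome, were summed. Every member had counts in every library. They stood against 10688 windows of the same width, placed over the genome wherever ends were found and averaging at least 10 CPM over the libraries (CPM, counts scaled to 1000000 nuclear, that is non-mitochondrial, counts). The ends lay at 22:39708887 on the minus strand for RPL3, 1:93307481 plus for RPL5, 9:136218281 plus for RPL7A, 8:146015154 minus for RPL8 and 1:24022915 plus for RPL11. They lay at 9:130209953 minus for RPL12, 16:89629500 plus for RPL13, 17:37360980 plus for RPL19, 2:217366188 plus for RPL37A and 12:120634489 minus for RPLP0.

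The cells were HEK293T, an established human embryonic kidney line. The thiol-bearing nucleoside 4-thiouridine (4sU) was given at 1000 mM as the labels state it, for 30 or 60 min. RNA that had taken it up was captured, and its poly(A) junctions were sequenced (4sU-2P-seq). Each labelling time had 1 library, and the remaining library was the input of the 30 min labelling, which the design text calls steady state and whose treatment field reads none. The 4sU libraries omitted a first poly(A) selection, and the sources used here do not say whether the input did. Nuclear counts numbered 9652023 after 30 min of labelling, 6151986 after 60 min and 32768468 in the input, and mitochondrial counts were 31.8%, 31.1% and 7.46% of the totals. With 1 library per group nothing below has a replicate check or a p-value, and every interval covers counting error only. The part of the skipped selection in any difference was not tested. HEK293T marker genes were not examined, because the files name no genes.

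Ribosomal proteins of the large subunit surround the ribosomal RNA that catalyses peptide bond formation. Their mRNAs are among the most abundant and, in growing cells, generally long-lived messages of a cell, so newly made molecules are a small part of the standing pool. Most begin with a terminal oligopyrimidine tract (TOP), a C at the first base followed by pyrimidines, through which their translation is regulated together.

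The tract is shown because it is a feature that the choice of ends did not use. RefSeq's table of promoters (GRCh38.p14) held 8 of the members; RPL5 and RPL8 had no entry. In 6 of the 8 genes an annotated start was a C followed by at least 4 pyrimidines, against 5.14% of 27305 genes and 4.07% of 35116 promoters in the table. The search read the gene's own strand at the annotated start only. Each line gives 15 bases before the start and 15 from it, with the tract in capitals.
RPL37A, chr2:216498829-216498858, plus strand: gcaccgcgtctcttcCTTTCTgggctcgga
RPL7A, chr9:133348203-133348232, plus strand: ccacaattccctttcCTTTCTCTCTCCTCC
RPLP0, chr12:120201097-120201126, minus strand: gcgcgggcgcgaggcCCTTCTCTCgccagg
RPL12, chr9:127451392-127451421, minus strand: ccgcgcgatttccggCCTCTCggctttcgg
RPL13, the second of 3 annotated starts, chr16:89560667-89560696, plus strand: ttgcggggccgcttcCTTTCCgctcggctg
RPL11, the second of 2 annotated starts, chr1:23691791-23691820, plus strand: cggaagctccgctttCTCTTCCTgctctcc
RPL3, chr22:39319609-39319638, minus strand: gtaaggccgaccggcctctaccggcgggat
RPL19, the second of 2 annotated starts, chr17:39200308-39200337, plus strand: gagcgagctctttcctttcgctgctgcggc
In RPL7A the run of pyrimidines from the start was 16 bases long and ran past the window. In RPL3 the run from the C was 4 bases long, 1 short of the rule. Neither annotated start of RPL19 was a C, though the second lay inside a pyrimidine run. The libraries read 3′ ends, so which start was used in these cells was not measured.

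Ribosomal protein genes have many processed copies in the genome, and RefSeq names 242 pseudogenes after these 10 genes, from 5 each for RPL8 and RPL11 to 80 for RPL7A. How reads that map to several places were handled is not stated in the labels or file headers, so the levels of genes with near-identical copies are uncertain.

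Together the 10 genes held 4.56% of nuclear counts in input (4.55 to 4.57, Wilson 95%), 1.47% after 30 min (1.47 to 1.48) and 2.07% after 60 min (2.06 to 2.08). Their summed share was thus 3.095-fold lower than input at 30 min (3.08 to 3.11) and 2.21-fold lower at 60 min (2.19 to 2.22). Without RPL37A, the most abundant, the folds were 2.64 and 2.09. These folds compare shares of captured RNA with shares of input RNA, and do not measure how much of a transcript the cells held. Bulk RNA gives no value per cell.

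RPL37A encodes a small zinc-binding protein and was the most abundant nuclear window of the input library. It had 12589 CPM in input, 2204 at 30 min and 4883 at 60 min. Among nuclear windows these ranked first, 20th and 7th in those libraries. The 30 min value was far below the input and the 60 min value lay between. Its 412535 input counts were the largest sum of any member, against 21273 and 30043 in the 4sU libraries.

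RPL5 and RPL11 bind 5S ribosomal RNA as a particle that joins the large subunit and can also restrain MDM2, the ligase that degrades p53. RPL5 had 6737 CPM in input, 1324 at 30 min and 1402 at 60 min. RPL11 had 3708 CPM in input, 1186 at 30 min and 1733 at 60 min. Both were low in captured RNA at both times. RPL5 ranked 3rd among the members in input but 5th at 30 min and 7th at 60 min.

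RPLP0 and RPL12 form the base of the ribosomal stalk, the site that recruits the GTPases of translation. RPLP0 had 7087 CPM in input, 2835 at 30 min and 3142 at 60 min, and was the highest member at 30 min. RPL12 had 2917, 1019 and 1199 CPM in the same order. In both genes the 4sU libraries lay close to each other and well below the input.

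RPL3 and RPL8 reach toward the peptidyl transferase centre. RPL8 had 4262 CPM in input, 2002 at 30 min and 2460 at 60 min. RPL3 stood apart, with 55.8 CPM in input, 38.1 at 30 min and 33.0 at 60 min. Its counts were 1827, 368 and 203, and its input rank was 2684, while the other 9 members ranked from first to 53rd. Its counts nevertheless sat at the stated end, 94.3% of those within 2000 nt at 30 min lying around 1 nt upstream of it. No other site with at least 1% of counts held more than 2.75% in any library. The low level was not tested further.

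RPL7A, RPL13 and RPL19 are structural proteins of the subunit, RPL19 contributing to a bridge with the small subunit. RPL7A had 2497 CPM in input, 924 at 30 min and 836 at 60 min. RPL13 had 3607, 1910 and 3011 CPM, and RPL19 had 2159, 1297 and 1979 CPM. By nuclear CPM, RPL13 and RPL19 at 60 min were close to their input level, whereas RPL7A was not.

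**Figure D1:**
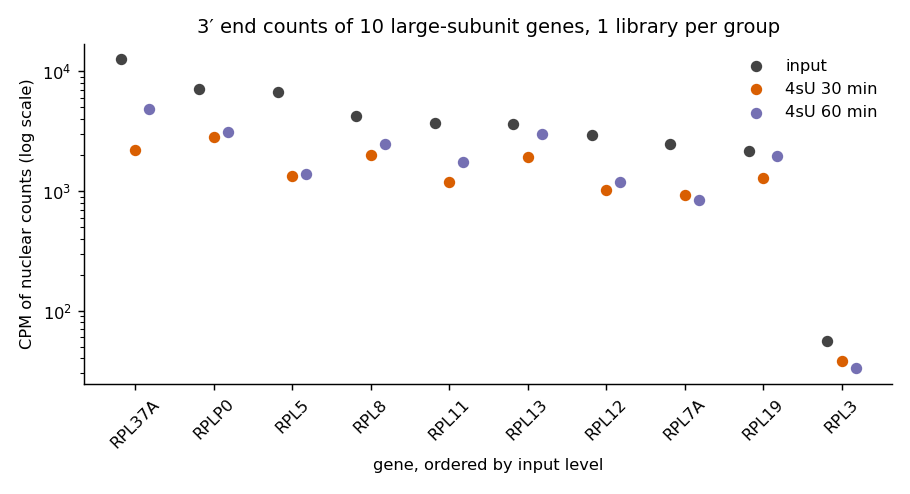
CPM of nuclear counts (log axis) of each gene in input, 4sU 30 min and 4sU 60 min, with 1 point per library. All 10 genes are highest in input, from 55.8 CPM for RPL3 to 12589 for RPL37A, and the RPL13 and RPL19 points at 60 min lie nearest to it.

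A window was called lower or higher when its CPM ratio was at least 2-fold and the exact 95% interval of the ratio (Clopper-Pearson) excluded 1. At 30 min 7 of 10 members were called lower than input and none higher. Of all windows 16.3% were called lower, and of the 201 windows with a mean of at least 500 CPM, which include 9 of the members, 44.8% were. The shares called higher were 36% of all windows and 19.4% of abundant ones. The members' median log2 ratio was -1.38, against 0.40 for all windows and -0.78 for the abundant ones. All 10 lay below the median of all windows and 8 below that of the abundant ones. As 9 of the members are abundant windows, their count is best read against the 44.8%.

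RPL37A was the lowest, 5.71-fold below input (5.63 to 5.79), followed by RPL5 at 5.09-fold (4.997 to 5.18). Only 2.99% and 3.98% of abundant windows had lower ratios. RPL11 was 3.13-fold lower, RPL12 2.86-fold, RPL7A 2.70-fold, RPLP0 2.50-fold and RPL8 2.13-fold. RPL13, RPL19 and RPL3 did not reach 2-fold, at 1.89, 1.66 and 1.46 (1.31 to 1.64). In this order RPL19 and RPL3 were the only neighbours whose intervals overlapped. The members spanned 3.91-fold between the extremes.

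Scaling bears on where the call falls. With median-of-ratios scaling, TMM, or mitochondrial counts in the total, 9 of 10 members were called lower at 30 min. The share of all windows called lower was then 24.8%, 25.2% and 25.8%, and that of abundant windows 55.7%, 56.2% and 57.2%. Relative to the median of all windows, which no common factor moves, RPL37A stood at -2.92 on the log2 scale, RPL5 at -2.75, RPL19 at -1.14 and RPL3 at -0.95.

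After 60 min 6 of 10 members were called lower than input and none higher, against 20.8% of all windows and 33.3% of abundant windows called lower. Of all windows 27.6% were called higher, and of abundant windows 17.4%. The median log2 ratio of the members was -1.14, with 0.087 for all windows and -0.38 for abundant ones. RPL5 was now the lowest, 4.81-fold below input (4.70 to 4.91), and 0.995% of abundant windows lay lower. RPL7A followed at 2.99-fold (2.90 to 3.07), RPL37A at 2.58-fold (2.55 to 2.61) and RPL12 at 2.43-fold. RPLP0 was 2.26-fold and RPL11 2.14-fold lower. RPL8 was 1.73-fold and RPL3 1.69-fold lower, with overlapping intervals. RPL13 was 1.198-fold lower (1.18 to 1.22) and RPL19 1.09-fold (1.07 to 1.11). With mitochondrial counts in the total, the log2 ratios of RPL13 and RPL19 went from -0.26 and -0.13 to -0.69 and -0.55. The order therefore differed from that at 30 min, when RPL37A was lowest and RPL7A 5th. Both comparisons use the same input library.

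**Figure D2:**
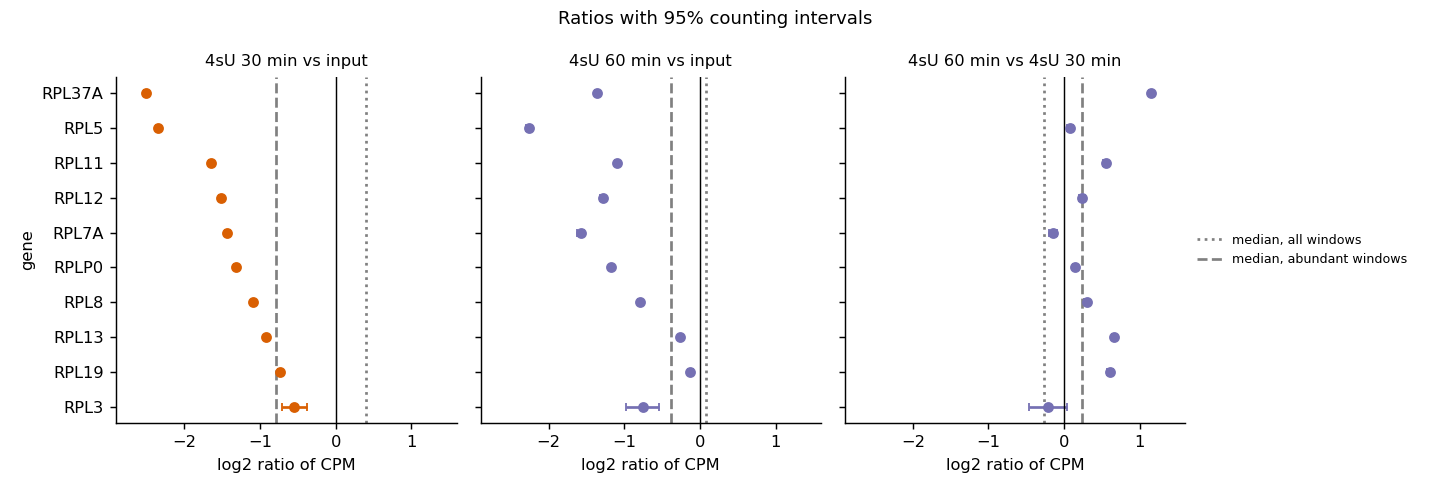
Log2 ratios of CPM for the 10 genes in the 3 comparisons, with 95% counting intervals, beside the median of all windows (dotted) and of windows with a mean of at least 500 CPM (dashed). RPL37A goes from -2.51 at 30 min to -1.37 at 60 min, while RPL5 is at -2.35 and -2.26.

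Between the labelling times, which use no input counts, RPL37A was the only member called, 2.22-fold higher at 60 than at 30 min (2.18 to 2.26). Of all windows 4.4% were called higher and of abundant windows 5.47%. RPL13 was 1.58-fold higher (1.54 to 1.61), RPL19 1.53-fold (1.49 to 1.56) and RPL11 1.46-fold (1.42 to 1.501), and their intervals overlapped from each to the next. RPL8 and RPL12 followed at 1.23 and 1.18, again overlapping. RPLP0 stood at 1.11 and RPL5 at 1.06 (1.03 to 1.09). RPL7A was at 0.905 of its 30 min level (0.874 to 0.937) and RPL3 at 0.865 (0.726 to 1.03). The direction of these last 2 turned with median-of-ratios scaling (log2 0.17 and 0.10) and with TMM (0.14 and 0.080), where they were above their 30 min level.

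Relative to the median of all windows, all 10 members were higher at 60 min, by 0.064 (RPL3) to 1.42 (RPL37A) on the log2 scale. Against the median of abundant windows 5 were higher and 5 lower. The median abundant window was itself above its 30 min level, by 0.24. RPL37A lay above 97.5% of abundant windows and RPL5 above 33.8%.

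By the distance between their pairs of log2 ratios to input, RPL12 and RPLP0 were closest to each other (0.22), as were RPL13 and RPL19 (0.23). The nearest member to RPL11 was also RPL12 (0.23). RPL5 and RPL37A had no near neighbour, at 0.91 from their closest members. RPL5 and RPL19 were farthest apart, at 2.68. RPL5 and RPL11, which enter the same particle, were 1.36 apart.

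**Figure D3:**
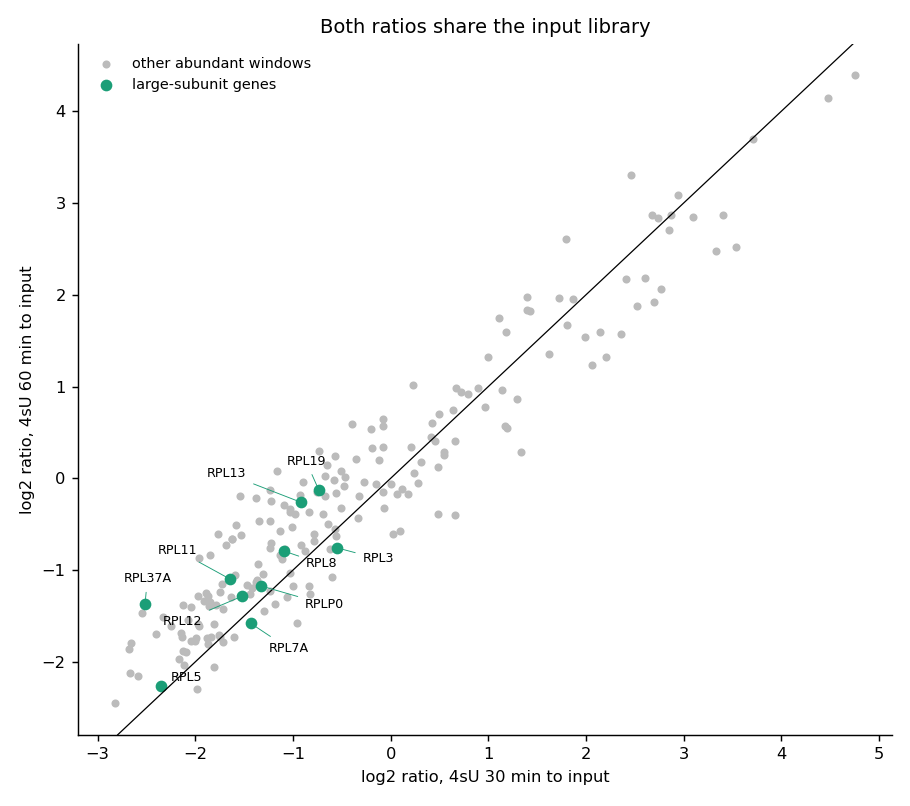
Log2 ratio to input at 60 min against that at 30 min for the 10 genes and for the other windows with a mean of at least 500 CPM; the line marks equal ratios and both axes share the input library. RPL37A lies far above the line, RPL7A and RPL3 lie below it, and RPL13 and RPL19 are nearest to 0 on the vertical axis.

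In all 10 genes the highest cleavage position was the same in all 3 libraries, a share near the 92.5% of abundant windows and 85.8% of all windows where this held. It lay at the stated end in RPL19 and 1 nt upstream of it in RPL3, RPL7A and RPL8. It lay 3 nt upstream in RPL12, 5 in RPL5 and RPL37A, 10 in RPL11, 21 in RPLP0 and 27 in RPL13. These distances take the second number of each deposited interval as the position.

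How narrowly the ends were placed differed between genes. By the share of counts at the highest position RPLP0 was first, with 82.5% in input, 76.9% at 30 min and 79.7% at 60 min. RPL12 was last, with 24.6%, 27.8% and 26.7%. The order by the SD of positions within 24 nt was another one, in input from 0.559 nt in RPL3 to 4.53 nt in RPL13, with 2.64 nt in RPLP0 and 2.82 nt in RPL12. The 10 genes had 3 to 11 positions with at least 1% of counts, 3 in RPL3 and 11 in RPL11 in every library.

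Captured and input RNA differed in the weights of these positions. Within 24 nt of the highest position, a median of 5.56% of the members' counts lay at other positions at 30 min than in input, and 7.26% in abundant windows. At 60 min these were 5.20% and 6.79%. Between the 4sU libraries they were 3.03% and 3.39%. Sampling alone gives some such difference, more at low counts, and its part was not estimated. RPL3, with the fewest counts, had the largest value of the members between the 4sU libraries, 7.14%.

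Many single positions differed from input in the same direction in both 4sU libraries. Both differences use the same input library, so some of this agreement comes with the design. The share of positions that do so was not counted over all windows. Those named here were chosen after their values were seen. In RPL37A the position 5 nt upstream of the end held 42.8% in input, 35.3% at 30 min and 36.97% at 60 min, while the position 2 nt upstream held 25.8%, 31.9% and 31.7%. In RPL12 the position 10 nt upstream held 10.98% in input, 14.5% at 30 min and 12.04% at 60 min, and that 1 nt upstream held 14.8%, 9.60% and 10.4%. In RPL8 the stated end itself held 17.1% in input, 12.7% at 30 min and 12.9% at 60 min. In RPLP0 the position 23 nt upstream held 2.46% in input, 4.82% at 30 min and 5.12% at 60 min.

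**Figure D4:**
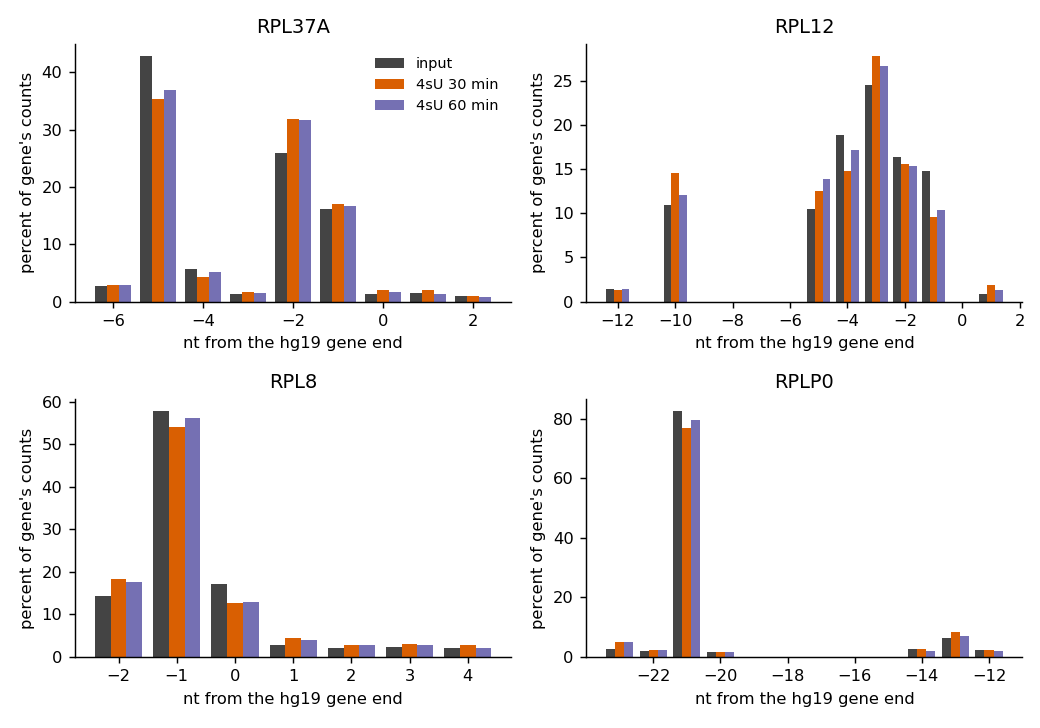
Percent of each gene's counts at positions with at least 1% of counts in a library, by distance from the hg19 gene end (negative is upstream), for RPL37A, RPL12, RPL8 and RPLP0 in input, 4sU 30 min and 4sU 60 min. The highest position is shared by the libraries, and in RPL37A the weight at -2 is 31.9% at 30 min against 25.8% in input.

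At 30 min the mean position was upstream of that in input in 6 of 10 members, near the 69% of all windows and 75.1% of abundant ones. The largest upstream shifts were in RPL11, at -0.33 nt (-0.38 to -0.27), and RPL12, at -0.32 nt (-0.38 to -0.26). RPL37A went the other way, 0.25 nt downstream (0.23 to 0.28). At 60 min the mean lay upstream in 7 members, near the 66.8% of all windows and 77.6% of abundant ones. RPL13 then had the largest shift, -0.49 nt (-0.56 to -0.42), and RPL37A was again downstream, by 0.15 nt (0.13 to 0.18). All shifts were under 1 nt. With a main site of 10 nt either side, the mean lay upstream in 5 members at 30 min and in 7 at 60 min. No share of windows was computed at that width.

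Further ends lay beside RPL13. Within 2000 nt of its stated end, the site 348 nt downstream held 4.73% of counts in input (4.61 to 4.85), 11.5% at 30 min (11.1 to 11.9) and 5.29% at 60 min (4.98 to 5.61). A site 115 nt downstream held 1.55%, 4.03% and 2.07% in the same order. At both the 30 min library had the highest share and the 60 min library was nearer to the input. A site between them, 202 nt downstream, held 1.55% in input, 1.957% at 30 min and 0.856% at 60 min, so that the 60 min share lay below the input. Its CPM at 30 min was 0.729 of the input level (0.654 to 0.811). On the CPM scale the site at 348 nt was 1.41-fold higher at 30 min than in input (1.34 to 1.47), short of a call. The main site was at 0.509 of its input level (0.501 to 0.518). By CPM the median of all windows was also above input at 30 min, at log2 0.40. With median-of-ratios scaling that median was 0.0055, and the ratio of the site was not computed under other scalings. From 30 to 60 min the site at 348 nt went to 0.669 of its level (0.622 to 0.720). The main site stood at 1.64-fold (1.61 to 1.68), also short of a call. The sites at 115 and 202 nt lie within 300 nt of the end, so their counts are part of the RPL13 CPM. With windows of 100 nt either side, the RPL13 log2 ratio to input at 30 min was -0.97, against -0.92. Between labelling times it was 0.72, against 0.66. Whether the downstream ends belong to RPL13 transcripts was not examined, as no hg19 gene models were used.

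**Figure D5:**
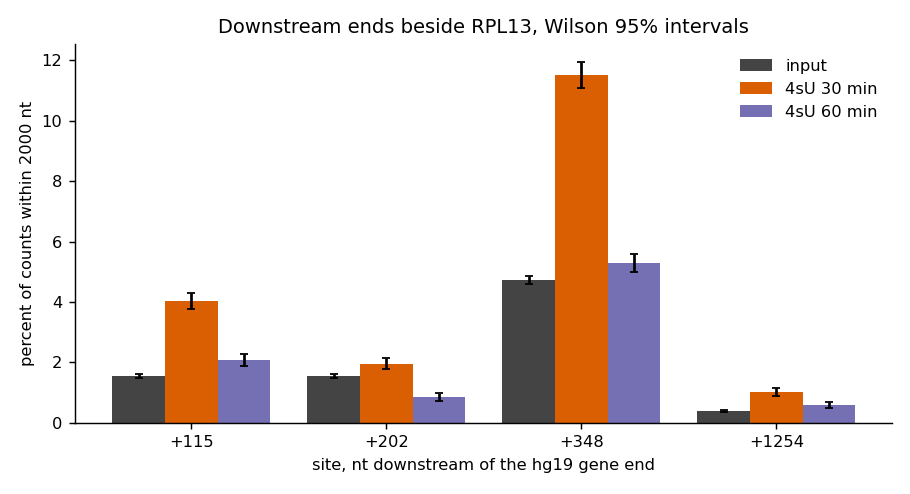
Percent of the counts within 2000 nt of the RPL13 end at its 4 downstream sites, in input, 4sU 30 min and 4sU 60 min, with Wilson 95% intervals. The site at 348 nt holds 4.73% in input, 11.5% at 30 min and 5.29% at 60 min.

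RPL37A had such an end 998 nt downstream, with 0.638% of counts in input (0.615 to 0.663), 1.80% at 30 min (1.63 to 1.99) and 1.18% at 60 min (1.07 to 1.31). The order of the libraries was that of the RPL13 sites at 348 and 115 nt, and not of its site at 202 nt. At 30 min this end was at 0.504 of its input CPM (0.452 to 0.560), against 0.174 for the main site. In all, 3 members (RPL13, RPL37A and RPL3, the last on 10 counts) had at least 1% of counts between 300 and 2000 nt downstream at 30 min, as did 40.8% of all windows and 20.9% of abundant ones, among which RPL3 is not counted. The members' median share was 0.097% at 30 min and 0.0068% in input. For all windows these medians were 0.446% and 0.146%, above the members', and for abundant windows 0.054% and 0.013%.

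RPL7A carried an end 194 nt upstream of the stated end that was found mostly in captured RNA. Its counts were 118 at 30 min and 31 at 60 min, with 5 in input, or 1.31%, 0.601% and 0.0061% of counts within 2000 nt. It was 80.1-fold higher at 30 min than in input (33.4 to 251) and 33.0-fold higher at 60 min (12.7 to 109). Its counts fell at 15 positions, with 52.6% of them at 1 position. Whether this end belongs to RPL7A transcripts was not examined, and how many other windows hold such an end was not counted. By contrast RPL19 had a minor end 60 nt upstream that held 2.77% of counts in input (2.65 to 2.89). It held 2.88% at 30 min (2.60 to 3.19). At 60 min it held 2.31% (2.05 to 2.59), an interval below those of input and 30 min. RPL5, RPL8, RPL11, RPL12 and RPLP0 each had a single site with at least 1% of counts.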

How the data were processed

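HEK293T 3′ ends were measured in 3 libraries by 2P-seq or 4sU-2P-seq. The deposited files hold raw counts per genomic position and strand, without normalization; cutadapt and Bowtie are named per the submitters' processing notes. The sources used here do not give the build; hg19 comes from the stated gene ends. The members, lists and rules were chosen with earlier results of these data known.

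Counts within 300 nt of each end were summed and divided by nuclear totals (CPM). All 10 members are named. Background windows of the same width were centred in turn on the highest nuclear position not yet covered by an earlier one. Ratios carry exact Clopper-Pearson 95% intervals, shares Wilson intervals, and shifts of the mean position 1.96 standard errors. Amplified copies were not marked, so reads are not independent molecules. Scaling factors came from edgeR 4.0.16 in R 4.3.3; other steps used Python 3.11.15, pandas 2.3.3, numpy 2.4.6 and scipy 1.17.1. Calls were tested on simulated data with counting error only, which held no differences between replicates and no amplified copies. Alternatives covered scaling, window width, positions counted, fold and the width of the main site. No genome of the files' build was used, so no poly(A) signal was examined.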

Additional observations from a re-analysis of the deposited data

How the results depend on the processing

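The counts of members called lower kept within 1.5 times under every alternative tried, at 7 to 9 at 30 min and 6 to 8 at 60 min. The shares of windows called lower rose too. With a 1.5-fold threshold 9 members were called at 30 min, beside 25.1% of all windows and 55.7% of abundant ones. At 60 min that threshold gave 8 members, beside 31.25% and 43.8%. Mitochondrial counts in the total also gave 8 at 60 min, beside 31.5% and 43.8%. The count called higher between labelling times went from 1 to 3 with a 1.5-fold threshold (RPL13, RPL19 and RPL37A). At that threshold 10.3% of all windows and 24.4% of abundant ones were called higher. The count was 1 otherwise. With median-of-ratios scaling it stood beside 8.13% of all windows and 18.4% of abundant ones. The shares were 7.75% and 16.4% with TMM, and 4.53% and 5.97% with mitochondrial counts in the total. The log2 ratio of the summed counts, -1.63 at 30 min, was -2.03 with median-of-ratios scaling, -2.05 with TMM and -2.07 with mitochondrial counts in the total; windows of 100 and 1000 nt either side gave -1.64 and -1.61. At 60 min it was -1.14, and -1.23, -1.27 and -1.57 under the 3 scalings and -1.13 with 1000 nt. Between times it was 0.49, and 0.799, 0.78 and 0.504 under the scalings and 0.48 with 1000 nt. Leaving out each gene in turn gave -1.71 to -1.40, -1.25 to -1.01 and 0.33 to 0.56. Of the 210 single-gene values under 7 alternatives, 206 kept their sign; the other 4 were RPL3 and RPL7A between times, as given above. No paired analysis was possible because each group had 1 library. Depth limits RPL3 most, with 203 counts at 60 min.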

Other observations

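On the strand opposite to RPL5, within 300 nt of its end, 68 counts were found at 30 min, 27 at 60 min and 173 in input. They came to 0.529% (0.418 to 0.670), 0.312% (0.215 to 0.454) and 0.078% (0.067 to 0.091) of the counts on both strands. On the CPM scale, which does not involve the RPL5 level, they stood at 7.05, 4.39 and 5.28. The ratio to input was 1.33 at 30 min (0.993 to 1.78) and 0.831 at 60 min (0.533 to 1.25), and both intervals include 1. The other 9 members had at most 3 counts on the opposite strand in a library.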
